A study of Mus musculus with 4 samples.

Results

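Tetraspanins are small proteins that cross the cell membrane several times, carry a small and a large extracellular loop, and hold integrins, immunoglobulin-like proteins and proteases together in membrane microdomains. On blood stem cells, platelets and leukocytes they take part in adhesion, in signaling and in the traffic of vesicles and granules. CD9 is one of them and served as a sort gate here, together with CD41, the integrin chain encoded by Itga2b. The genes described are 10 tetraspanins chosen by symbol, namely Cd9, Cd63, Cd81, Cd82, Cd151, Cd37, Cd53, Tspan3, Tspan13 and Tspan32, out of 37140 genes listed in all 4 libraries. All 10 were matched to 1 Ensembl gene each, and all 10 passed the filter on low counts (at least 10 counts in a library of the pair) in both populations.

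RNA was sequenced from sorted bone marrow cells of C57Bl6 mice, in 1 library per genotype and population. Gfi1b KO mice carried Gfi1b fl/fl, whose exons are removed by a tamoxifen-inducible Cre expressed from the ubiquitous Rosa26 locus, so that the deletion was not limited to blood cells. According to the methods the WT controls carried Rosa-Cre and 1 floxed Gfi1b allele beside a wild-type one, whereas the deposited design text speaks of floxed controls lacking Cre. Tamoxifen was given 2 weeks before analysis. Marrow of 10 WT mice or 5 KO mice was pooled before sorting, so the spread between animals cannot be seen. As the methods describe it, the populations were sorted from the pooled marrow of a genotype, so both libraries of a genotype appear to share mice. The sample titles write Gfi1 where the genotype entries write Gfi1b, with the same division into WT and KO, and the ages were not given in the sources used here. The first population, called HSCs here, was gated as CD150+ and CD48- in the Lin- Sca1+ cKit+ fraction. The second was the CD41low/CD9low fraction of HSCs. The study's text names the first population by CD41 and CD9 as well, but its methods list no such gate for it.

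Counts on genes summed to 50781007 for WT HSCs, 41690708 for KO HSCs, 12732079 for WT CD41low/CD9low HSCs and 19123185 for KO CD41low/CD9low HSCs. The 10 HSC markers looked at were counted in every library, with a summed level of 2676 to 3233 CPM (counts on genes scaled to the library total). Gfi1b itself cannot check the labels, because its whole-gene count includes exons outside the deletion, and this count was higher in both KO libraries (182 against 1197 CPM for HSCs, then 47.99 against 509 CPM for CD41low/CD9low HSCs). Cd48, a marker that the HSC gate leaves out, was at 6.01, 7.75, 1.26 and 2.20 CPM in the order above. Slamf1, which encodes the gate CD150, was at 82.7, 106, 30.9 and 61.1 CPM, higher in the KO library of both populations. In both genotypes it was lower in CD41low/CD9low HSCs.

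Gfi1b is a transcriptional repressor, and its core DNA motif is AATC. The sequences upstream of Cd53 and Cd9 are shown because the results turn on these genes, Cd53 as the member that rose in the KO libraries and Cd9 as the gate. They are RefSeq sequence of GRCm38.p6, written along the gene's strand and ending at the base before the first transcribed base, and capitals mark AATC or its reverse complement.
Cd53 (chr3:106790150-106790399, minus strand): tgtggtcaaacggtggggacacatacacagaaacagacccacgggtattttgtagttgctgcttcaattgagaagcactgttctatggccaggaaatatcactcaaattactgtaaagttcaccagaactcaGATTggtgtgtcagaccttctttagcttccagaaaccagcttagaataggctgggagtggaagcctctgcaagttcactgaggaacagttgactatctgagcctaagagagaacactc
Cd9 (chr6:125494792-125495010, minus strand): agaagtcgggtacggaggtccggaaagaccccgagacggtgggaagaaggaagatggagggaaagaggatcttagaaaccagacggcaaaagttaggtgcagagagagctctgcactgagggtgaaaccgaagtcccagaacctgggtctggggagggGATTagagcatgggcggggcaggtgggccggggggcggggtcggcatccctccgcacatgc
All 10 members had a window of 300 bases (250 before and 50 after the start) in the promoter table, and 8 of the 10 windows held the motif on either strand. Where several windows were listed for a member (4 for Cd82 and 2 for Cd151), only the most upstream was searched. Of all 32851 windows of the same length, which include further windows of the same gene, 73.1% held it. Cd63 had the most matches among the members, 3, whereas the windows of Cd151 and Cd37 had 0. A match is a description of the letters and not evidence of binding, and binding was not measured in these libraries.

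The question behind the comparison of KO with WT is which genes depend on Gfi1b in stem cells. Cd53, a tetraspanin largely restricted to leukocytes, was at 37.7 CPM in WT HSCs, 105 CPM in KO HSCs, 36.3 CPM in WT CD41low/CD9low HSCs and 95.5 CPM in KO CD41low/CD9low HSCs. The 2 WT libraries lay close together and both KO libraries were higher. The KO/WT ratio was 2.81 (95% interval 2.66 to 2.97) for HSCs and 2.63 (2.38 to 2.92) for CD41low/CD9low HSCs. Ratios were computed from counts divided by size factors and differ slightly from the quotient of the CPM values. The intervals are exact (Clopper-Pearson) and cover counting error only, since a population has 1 library per genotype and no difference within it has a replicate check. In edgeR's quasi-likelihood test of a genotype effect shared by the populations, Cd53 was higher in KO by 1.44 on the log2 scale (SE 0.16, Benjamini-Hochberg adjusted p = 8.6e-05), with both KO libraries above their WT library. This fit treats the 2 libraries of a genotype as separate samples although they appear to come from the same mice, so its p-values do not cover the spread between animals. Cd53 lies on chromosome 3 from 106759921 to 106790149 on the minus strand (GRCm38).

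**Figure D1:**
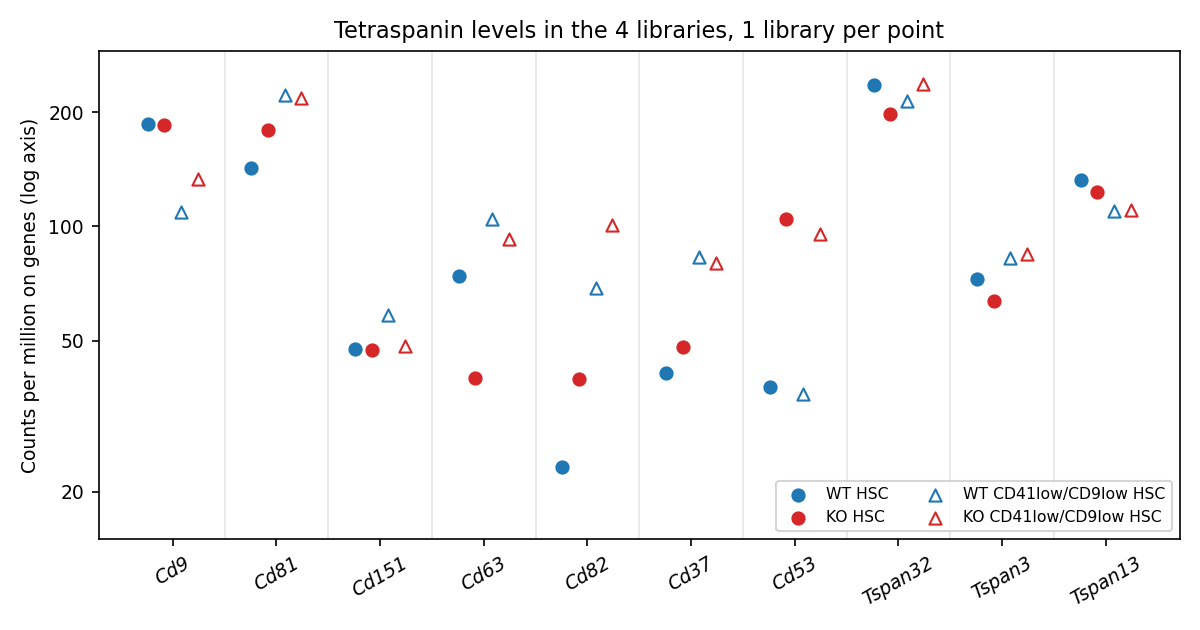
Levels of the 10 tetraspanins in the 4 libraries, in CPM on a log axis, 1 point per library and no error bars because there is 1 library per group. Cd53 was at 37.7 and 36.3 in the WT libraries and at 105 and 95.5 in the KO libraries, and Cd9 at 185 in both HSC libraries and at 109 and 133 in the CD41low/CD9low libraries.

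Cd82, which acts in cell adhesion and motility and is found on quiescent HSCs, was at 23.2 and 39.7 CPM in WT and KO HSCs and at 68.8 and 101 CPM in WT and KO CD41low/CD9low HSCs. It was higher in the KO library of both populations, with ratios of 1.73 (1.61 to 1.87) and 1.47 (1.36 to 1.60). The shared effect was 0.67 on the log2 scale (SE 0.17) and did not pass the test (adjusted p = 0.076, and 0.0078 to 0.17 over the alternative fits). With no filter on low counts it passed.

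Cd63, a protein of late endosomes, lysosomes and platelet granules, was at 74.1 CPM in WT HSCs and 39.9 CPM in KO HSCs. Its levels in WT and KO CD41low/CD9low HSCs were 104 and 92.6 CPM. The KO/WT ratio was 0.55 (0.51 to 0.58) for HSCs and 0.89 (0.83 to 0.95) for CD41low/CD9low HSCs. Both ratios were below 1, and the shared effect of -0.53 on the log2 scale (SE 0.18) did not pass the test (adjusted p = 0.260).

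Cd9, which binds integrins and is abundant on megakaryocytes and platelets, was at 185 CPM in both HSC libraries and at 109 and 133 CPM in WT and KO CD41low/CD9low HSCs. Its KO/WT ratio was 1.01 (0.98 to 1.04) for HSCs and 1.23 (1.15 to 1.31) for CD41low/CD9low HSCs, and its shared effect of 0.15 (SE 0.15) on the log2 scale did not pass the test (adjusted p = 0.865). The CD41low/CD9low cells of both genotypes were sorted on CD9. The Cd9 ratio in that population and the shared effect are therefore given as a description, and whether Cd9 depends on Gfi1b was not tested by them.

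Cd81, a close relative and partner of CD9, was at 143 and 179 CPM in WT and KO HSCs and at 222 and 218 CPM in WT and KO CD41low/CD9low HSCs. Its ratios were 1.27 (1.23 to 1.31) and 0.99 (0.94 to 1.03). Cd151, a partner of laminin-binding integrins, was at 47.4 CPM in both HSC libraries and at 58.4 and 48.4 CPM in WT and KO CD41low/CD9low HSCs. Its ratios were 1.01 (0.95 to 1.07) and 0.83 (0.75 to 0.91). Neither gene passed the shared test, with effects of 0.16 and -0.13 on the log2 scale.

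Cd37 is, like Cd53, a tetraspanin of leukocytes, above all of B cells. It was at 41.0 and 48.2 CPM in WT and KO HSCs and at 82.9 and 80.0 CPM in WT and KO CD41low/CD9low HSCs, and its ratios were 1.19 (1.12 to 1.27) and 0.97 (0.89 to 1.05). Its shared effect of 0.10 on the log2 scale did not pass the test, whereas Cd53 passed it. Exons of Cd37 overlap Tead2 on the opposite strand, and whether the counting used strand is not given in the sources used here. Tead2 had 500 to 962 counts per library against 1055 to 2083 for Cd37.

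Tspan32, a tetraspanin of blood cells that supports integrin signaling in platelets, was at 235 and 197 CPM in WT and KO HSCs and at 213 and 237 CPM in WT and KO CD41low/CD9low HSCs. Its ratio was below 1 in HSCs, at 0.85 (0.83 to 0.87), and above 1 in CD41low/CD9low HSCs, at 1.11 (1.06 to 1.17). Tspan13 was at 133, 123, 110 and 111 CPM in WT HSCs, KO HSCs, WT CD41low/CD9low HSCs and KO CD41low/CD9low HSCs, with ratios of 0.94 (0.91 to 0.98) and 1.01 (0.94 to 1.08). Tspan3 was at 72.7, 63.6, 82.6 and 84.7 CPM in the same order, with ratios of 0.89 (0.84 to 0.93) and 1.03 (0.95 to 1.11). The shared effects of these 3 genes were -0.07 to -0.04 on the log2 scale, and none passed the test.

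**Figure D2:**
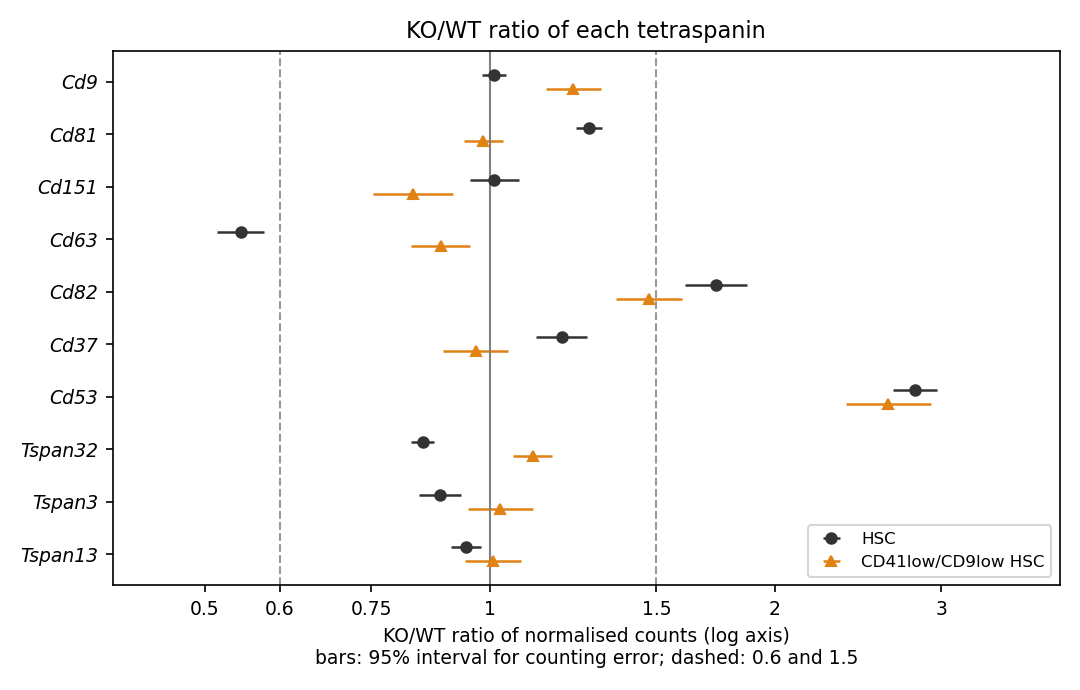
KO/WT ratios of the 10 tetraspanins in HSCs and in CD41low/CD9low HSCs on a log axis, with exact 95% intervals for counting error only, beside the cutoffs of 1.5 and 0.6. Cd53 was above 1.5 in both populations, Cd82 in HSCs, and Cd63 was below 0.6 in HSCs.

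By the study's cutoffs, 2 of the 10 members (Cd53 and Cd82) were above a ratio of 1.5 in HSCs, where 14.1% of the genes tested were, and 1 (Cd63) was below 0.6, where 10.3% were. In CD41low/CD9low HSCs 1 of the 10 (Cd53) was above 1.5, against 13.5% of the genes tested, and 0 were below 0.6, against 12.0%. Cd53 was the member above 1.5 in both populations, as were 3.32% of the genes tested in both, and 0 members were below 0.6 in both, against 2.45%. In the shared fit, 1 of the 10 was called higher in KO (0.535% of the genes tested) and 0 were called lower (0.308%). At an unadjusted p under 0.05 there were 3 of the 10 members, Cd53, Cd82 and Cd63, against 10.05% of the genes tested. DESeq2 also called Cd53 higher and 0 members lower. The median log2 KO/WT ratio of the members was 0.016 for HSCs and 0.024 for CD41low/CD9low HSCs, beside -0.0013 and 0.0017 over all genes tested.

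Many of the genes past the cutoffs had low counts. Among genes with at least 500 counts in a library of the pair, which all 10 members had, 7.12% were above 1.5 and 2.50% below 0.6 in HSCs. In CD41low/CD9low HSCs the shares were 3.14% and 0.656%. Of these genes, 0.809% had a ratio at or above that of Cd53 in HSCs and 0.197% in CD41low/CD9low HSCs. For Cd82 the shares were 3.65% and 3.52%. The ratio of Cd63 in HSCs was lower, with 98.3% of the genes at or above it.

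The ratio of the KO/WT ratio in CD41low/CD9low HSCs to that in HSCs was 0.94 (0.83 to 1.05) for Cd53 and 1.07 (0.99 to 1.15) for Tspan13, and these 2 intervals included 1. It was 1.63 (1.48 to 1.78) for Cd63, 1.31 (1.24 to 1.38) for Tspan32, 1.21 (1.13 to 1.30) for Cd9 and 1.16 (1.06 to 1.27) for Tspan3. It was 0.77 (0.73 to 0.82) for Cd81, 0.81 (0.73 to 0.90) for Cd37, 0.82 (0.73 to 0.92) for Cd151 and 0.85 (0.76 to 0.95) for Cd82. The intervals of these other members excluded 1. With 462 to 11948 counts per member and library such intervals are narrow, and the share of all genes whose interval excludes 1 was not computed. Whether the difference between the populations exceeds the spread between preparations was not tested, because a fit of this difference to 4 libraries leaves no residual degree of freedom.

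**Figure D3:**
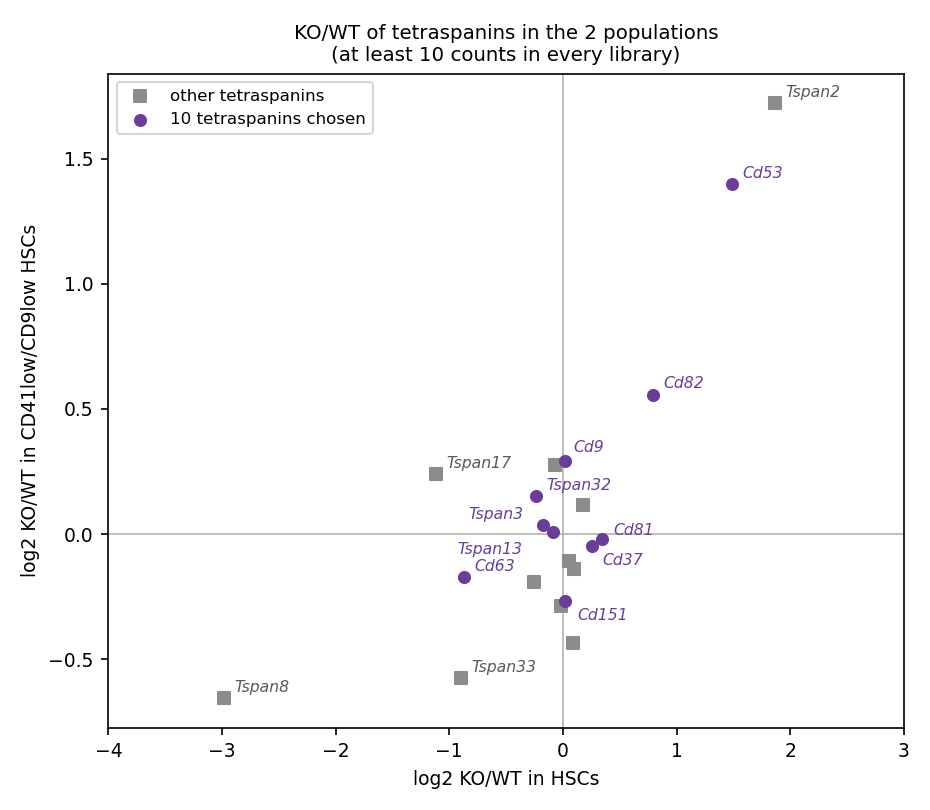
Log2 KO/WT ratio in HSCs (horizontal) against that in CD41low/CD9low HSCs (vertical) for the 10 tetraspanins and for the other tetraspanins with at least 10 counts in every library, 1 point per gene. Tspan2 and Cd53 lie farthest to the upper right, with ratios of 3.65 and 3.30 for Tspan2 and of 2.81 and 2.63 for Cd53, whereas Cd63 lies to the left with 0.55 and 0.89.

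The other tetraspanins were taken from a list of 21. In HSCs 15 passed the filter on low counts, of which 2 were above 1.5 (Tspan2 and Upk1b, the latter with 2 and 21 counts) and 5 below 0.6 (Tspan7, Tspan8, Tspan12, Tspan17 and Tspan33), against 14.1% and 10.3% of all genes tested. In CD41low/CD9low HSCs 13 passed, of which 3 were above 1.5 (Tspan2, Tspan7 and Tspan12) and 0 below 0.6, against 13.5% and 12.0%. Tspan7 and Tspan12 were at 0 in WT CD41low/CD9low HSCs and at 0.73 and 1.46 CPM in the KO library, at least 3.11-fold and 6.22-fold higher if WT is set at 3 counts. The median log2 ratio of the list was -0.07 for HSCs and -0.14 for CD41low/CD9low HSCs (-0.11 with Tspan7 and Tspan12 at these bounds), with the all-gene medians as given above.

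Tspan2, which lies on the same chromosome as Cd53 at a distance of 3958408 bases, was at 11.3, 40.6, 5.81 and 19.1 CPM in WT HSCs, KO HSCs, WT CD41low/CD9low HSCs and KO CD41low/CD9low HSCs. Its KO/WT ratio was 3.65 (3.31 to 4.01) for HSCs and 3.30 (2.56 to 4.29) for CD41low/CD9low HSCs, higher in KO in both. The shared effect was 1.80 on the log2 scale (SE 0.25, adjusted p = 0.0011). Tspan2 was the 1 gene called higher among the 14 other tetraspanins in the fit, against 0.535% of all genes tested. Of the 14, 0 were called lower, against 0.308%, and 2 had an unadjusted p under 0.05, against 10.05%. Tspan33, which sends the protease ADAM10 to the cell surface and is known from red cell formation, had ratios of 0.54 and 0.67 and did not pass the test (adjusted p = 0.446). Tspan14, Tspan5 and Tspan17 also work with ADAM10, and their ratios were 1.07, 0.95 and 0.46 in HSCs and 0.91, 1.21 and 1.18 in CD41low/CD9low HSCs. These 4 genes were named after their values were seen, except that all are on the list of other tetraspanins.

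Of 15 partners of tetraspanins, integrin chains, immunoglobulin-like proteins and proteases among them, 3 were above 1.5 and 2 below 0.6 in HSCs, against 14.1% and 10.3% of all genes tested. In CD41low/CD9low HSCs 2 were above 1.5 and 2 below 0.6, against 13.5% and 12.0%. The median log2 ratios were 0.13 and 0.03. Itgb3, the integrin chain that pairs with CD41 on platelets, was at 202 and 663 CPM in WT and KO HSCs and at 51.4 and 141 CPM in WT and KO CD41low/CD9low HSCs. Its ratios were 3.32 and 2.74, and it was the 1 partner called higher in the shared fit, against 0.535% of all genes tested (1.59 on the log2 scale, SE 0.15, adjusted p = 1.5e-05). Of the 15 partners 0 were called lower, against 0.308%, and 2 had an unadjusted p under 0.05, against 10.05%. Itga2b, the other gate, was at 547 and 691 CPM and at 136 and 205 CPM, with ratios of 1.28 and 1.504, and did not pass the test (adjusted p = 0.180). As for Cd9, its ratio in the sorted CD41low/CD9low HSCs and its shared effect are a description. Cd36 was below 0.6 in both populations (0.28 and 0.57) at 12 to 104 counts per library and did not pass the test.

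RNA of other cell types moved with these comparisons, and its part in them was not tested. The 11 megakaryocyte markers summed to 1594 and 2318 CPM for WT and KO HSCs, then to 447 and 546 CPM for WT and KO CD41low/CD9low HSCs, where Gp6 was at 0 in both libraries. This list contains Itga2b and Itgb3, and without these 2, left out after the values were seen, the other 9 summed to 845 and 964 CPM and to 259 and 200 CPM, the latter pair lower in KO. Vwf, named after its values were seen, was the largest part of these sums, at 560 and 678 CPM and at 206 and 126 CPM. By the cutoffs, 4 of the 11 markers were above 1.5 and 0 below 0.6 in HSCs, against 14.1% and 10.3% of all genes tested. In CD41low/CD9low HSCs 10 passed the filter, with 6 above 1.5 and 0 below 0.6, against 13.5% and 12.0%. The 10 neutrophil and monocyte markers summed to 338 and 445 CPM for WT and KO HSCs, then to 944 and 224 CPM for WT and KO CD41low/CD9low HSCs. In the latter pair all 9 that passed the filter had a ratio below 0.6, against 12.0% of all genes tested. In HSCs 7 of 9 had a ratio above 1, where the median log2 ratio over all genes tested was -0.0013. There 1 marker was above 1.5 (Mpo) and 1 below 0.6 (Itgam), against 14.1% and 10.3% of all genes tested. Cd53, which these leukocytes also express, was higher in KO in both populations, and how far such cells contribute to its level was not tested. The 7 erythroid markers summed to 62.3, 52.2, 134 and 18.2 CPM in the order of libraries used above. In HSCs 2 were above 1.5 (Hbb-bs and Hba-a1) and 2 below 0.6 (Klf1 and Car1), against 14.1% and 10.3% of all genes tested. In CD41low/CD9low HSCs 1 was above 1.5 (Epor) and 6 below 0.6, against 13.5% and 12.0%. The 6 T and NK cell markers summed to 45.7 and 58.3 CPM for WT and KO HSCs and, for the second pair, to 23.7 and 42.0 CPM, higher in KO in both. The largest part of each sum was Nkg7, a granule protein of NK and T cells, at 32.0, 51.2, 10.1 and 30.8 CPM. It was called higher in KO in the shared fit (1.12 on the log2 scale, SE 0.24, adjusted p = 0.033). In HSCs 4 of the 6 markers passed the filter, with 1 above 1.5 (Nkg7) and 3 below 0.6, against 14.1% and 10.3% of all genes tested. In CD41low/CD9low HSCs 3 passed, with 1 above 1.5 and 1 below 0.6, against 13.5% and 12.0%. Cd4 was below 0.6 in both populations (0.54 and 0.28, at 21 to 95 counts), and Klrb1c had ratios of 0.51 and 1.48. The T cell markers Cd3e, Cd3g and Cd8a had at most 11 counts in any library. In bulk libraries, a change in the share of a cell type and a change in RNA per cell cannot be told apart.

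Levels can be compared between genes only per length, here as CPM per kilobase of exon. In WT HSCs the order was Cd9 (90.7), Tspan13 (53.6), Cd81 (49.6), Tspan32 (37.7), Cd53 (21.7), Cd63 (20.1), Cd151 (17.3), Tspan3 (17.0), Cd37 (11.6) and Cd82 (7.73). Cd53 was the fifth of the 10 in WT HSCs and the third in KO HSCs, with 60.1 CPM per kilobase. In WT CD41low/CD9low HSCs it was the ninth with 20.8, and in KO CD41low/CD9low HSCs again the third with 54.8. Cd81 was the highest in both CD41low/CD9low libraries, with 76.99 and 75.7 CPM per kilobase, ahead of Cd9 with 53.2 and 65.2. With 1 library per group, the spread of a level within a group is unknown. Over the 4 libraries, the ranges of the neighbors Cd63 (10.8 to 28.4), Cd151 (17.3 to 21.3) and Tspan3 (14.9 to 19.8) overlapped.

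**Figure D4:**
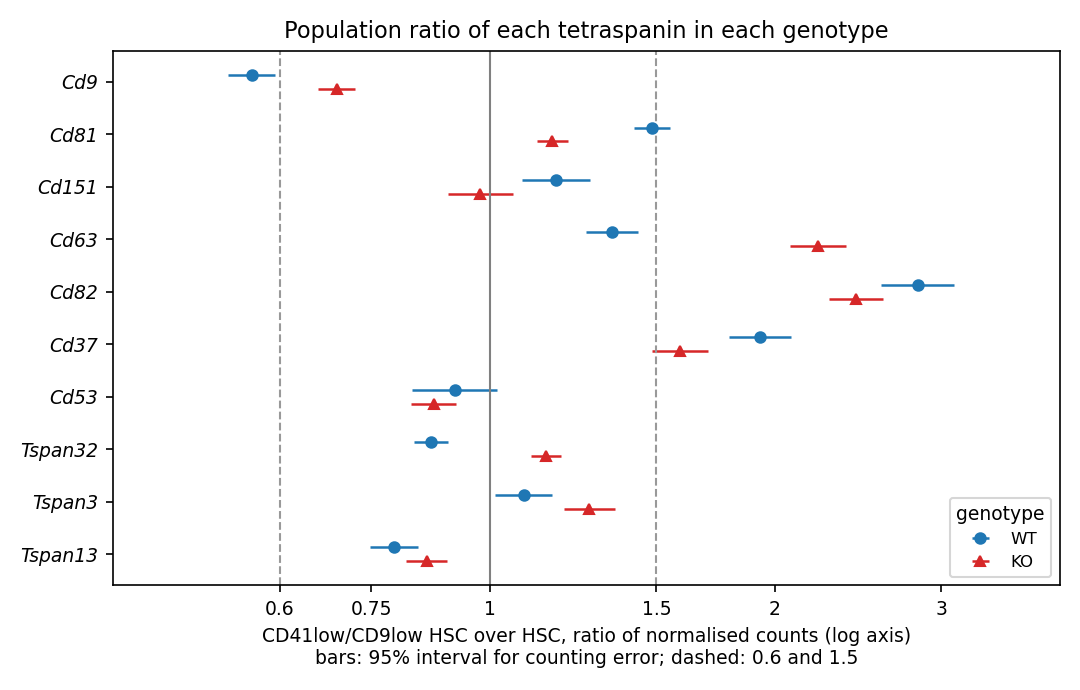
Ratio of the level in CD41low/CD9low HSCs to that in HSCs for the 10 tetraspanins, in WT and in KO, on a log axis with exact 95% intervals for counting error only. Cd82 was at 2.83 and 2.44 and Cd9, a gate of the sort, at 0.56 and 0.69.

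The populations were compared in the same fit, with genotype as covariate. The pairs list different numbers of genes (38293 and 41214), and population cannot be told apart from a difference in annotation or preparation. Cd82, Cd37 and Cd63 were higher in CD41low/CD9low HSCs, 3 of the 10 members against 8.24% of the genes tested. At an unadjusted p under 0.05 there were 5 of the 10, against 32.6%. Cd82 was higher by 1.40 on the log2 scale (SE 0.17, adjusted p = 2.1e-05). The ratio of CD41low/CD9low HSCs to HSCs was 2.83 (2.59 to 3.09) in WT and 2.44 (2.28 to 2.60) in KO. Cd37 was higher by 0.81 on the log2 scale (SE 0.16, adjusted p = 0.0021), with ratios of 1.93 (1.79 to 2.08) and 1.59 (1.48 to 1.70). Cd63 was higher by 0.79 (SE 0.18, adjusted p = 0.0048), with ratios of 1.35 (1.26 to 1.43) in WT and 2.22 (2.08 to 2.38) in KO.

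Cd9 was the 1 member called lower, where 12.6% of the genes tested were called lower. The cells were sorted on CD9, so its difference of -0.68 on the log2 scale is given as a description, with ratios of 0.56 (0.53 to 0.59) in WT and 0.69 (0.66 to 0.72) in KO. Cd81, Cd151, Cd53, Tspan3, Tspan13 and Tspan32 did not pass the test, with differences between -0.27 and 0.40 on the log2 scale. By the cutoffs within a genotype, 2 members were above 1.5 in the WT pair (Cd82 and Cd37, against 19.2% of the genes tested) and 1 below 0.6 (Cd9, against 19.7%). In the KO pair 3 were above 1.5 (Cd82, Cd63 and Cd37, against 19.2%) and 0 below 0.6 (against 20.4%). The difference for Cd53 was -0.16 (SE 0.16, adjusted p = 0.548), beside its genotype effect of 1.44. In this comparison 10 of the 11 megakaryocyte markers and 7 of the 15 partners (Adam10, Itga4, Itga6, Itgb1, Itgb3, Itga2b and Cd44) were called lower in CD41low/CD9low HSCs, against 12.6% of the genes tested. In either list 0 were called higher, against 8.24%. Itga2b and Itgb3 are in both lists, and Itga2b encodes the CD41 gate and is a description as for Cd9. The paper gives removal of possible megakaryocyte precursors as a purpose of this gate, so the lower megakaryocyte markers are also a description of the sort. Of the 14 other tetraspanins in the fit, Tspan4 and Tspan9 were called higher (0.50 and 0.91 on the log2 scale), against 8.24% of the genes tested. Tspan2 was called lower (-1.09), against 12.6%.

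The genes whose pattern over the 4 libraries was most like that of Cd9 were Elf1, Nae1, Slc7a1, March7 and Depdc5. Likeness was the Euclidean distance between the log2 levels centered on their mean, which was 0.025 for Elf1 and at most 0.056 for the other 4, against a median of 0.81 over 11063 genes with at least 50 counts in every library. With 4 libraries, closeness of this kind is a description, and the genes share the depth and preparation of those libraries.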

How the data were processed

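RNA of 4 pools of sorted mouse cells was sequenced (stranded poly(A) libraries, paired ends). The authors used TopHat2 2.0.10 to align reads to the mouse build mm10 (GRCm38) and deposited HTSeq counts per Ensembl gene, not normalized. The HTSeq version, its strand setting and the annotation releases are not given in the sources used here, and the pairs list 38293 and 41214 genes. Lines for reads on no feature (60.1 to 105.3 per 100 counts on genes) were left out. The total count was 12732079 to 50781007, so that 3 counts correspond to 0.059 to 0.236 CPM.

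KO/WT ratios used median-of-ratios size factors of each pair (after the authors' use of DESeq), for genes with at least 10 counts in a library of the pair, with cutoffs of 1.5 and 0.6. Intervals of ratios are exact (Clopper-Pearson) and those of ratios of ratios are conditional odds ratio intervals, all at 95%. Effects shared by the populations, or by the genotypes, were tested with edgeR 4.0.16 (quasi-likelihood, TMM, additive design, at least 10 counts in 2 libraries, Benjamini-Hochberg over 14940 genes, threshold 0.05). In this fit the populations stand in as replicates for the effect of genotype. A gene has 1 residual degree of freedom of its own, beside 15.69 prior degrees of freedom drawn from all genes. The p-values thus rest largely on a spread estimated over other genes. DESeq2 1.42.0 was an alternative. Exon lengths and positions came from GENCODE M21. The ratio and fit steps were tested on simulated data. The members and lists were chosen with earlier results of these data known. Named were all members and the gates Cd9, Itga2b, Slamf1 and Cd48. Other tetraspanins and partners were named if called in the fit or past a cutoff in the same direction in both populations. Other genes are said to be named after their values were seen, or name list members past a cutoff. The B cell marker list is not reported here.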

Additional observations from a re-analysis of the deposited data

Results flagged for a closer look

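Tspan32 had a KO/WT ratio of 0.85 in HSCs and of 1.11 in CD41low/CD9low HSCs, on opposite sides of 1 with counting intervals that exclude 1 in both. Tspan14, which works with the protease ADAM10, had a KO/WT ratio of 1.07 in HSCs and of 0.91 in CD41low/CD9low HSCs. Its ratios also lay on opposite sides of 1 with counting intervals that exclude 1, but in the reverse direction to Tspan32. With 1 library per genotype and population, the difference between the populations was not tested for either gene.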

How the results depend on the processing

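The ratios were recomputed with TMM factors, total counts, size factors over all 4 libraries, a pseudocount of 1, a correction for exon length and other cutoffs, and the fit with RLE factors, DESeq2, robust dispersion and no filter on low counts. Of the main results, which are counts of genes, 100 recomputed counts stayed within 1.5-fold of the main count and 16 moved further. A count within this range could still change, such as 46 genes lower in KO in the main fit against 31 with RLE factors. With cutoffs of 2 and 1/2, 1 member in HSCs was up (Cd53) and 0 were down. Over all genes in HSCs, 1431 were above 1.5 and 792 below 0.6 with at least 50 counts, 713 and 250 with at least 500 counts, and 1187 were above a cutoff of 2. In CD41low/CD9low HSCs these numbers were 982 and 702, 239 and 50, and 1264. The shared fit called 80 genes higher and 46 lower, against 254 and 166 with no filter on low counts, where 2 members were called higher (Cd53 and Cd82), and 69 and 30 with DESeq2. The adjusted p of Cd53 was 1.3e-14 to 2.9e-04 over the alternative fits. The exon length correction raised the HSC ratios of Cd53 to 3.08, Cd81 to 1.39, Cd9 to 1.11, Cd151 to 1.10 and Tspan13 to 1.02, the last across 1. It lowered that of Tspan32 to 0.80. These 6 values lay outside the counting intervals of the main ratios. With total counts the HSC ratios of Cd9 and Cd151, both 1.01, were 0.997 and 0.998, also across 1. Tspan9 lost its population call in DESeq2 (adjusted p = 0.11, and the other alternatives kept it).

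No paired analysis was possible because each group has 1 library and the labels give no replicate numbers. The shared fit compares KO with WT within each population through its population term. Leaving out a library leaves no residual degree of freedom and was not run. Depth limits the genes with few counts, and no member is among them.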

Other observations

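Some tetraspanin genes lie next to each other on the chromosome. Cd81 and Tspan32 are 33095 bases apart on chromosome 7, and their KO/WT ratios were 1.27 and 0.85 in HSCs and 0.99 and 1.11 in CD41low/CD9low HSCs. Cd151 and Tspan4 are 3767 bases apart on the same chromosome, with ratios of 1.01 and 0.84 in HSCs and of 0.83 and 0.88 in CD41low/CD9low HSCs. Cd82 lies 84606 bases from Tspan18, which had at most 34 counts in a library. Treml1, a platelet membrane protein, was called higher in KO in the shared fit. It and Itgb3 were the 2 genes called higher among the 11 megakaryocyte markers, against 0.535% of all genes tested. Among these markers 0 were called lower, against 0.308%.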
